A study of Homo sapiens with 12 samples.

Results

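NCI-H295R cells, an established human adrenocortical carcinoma line that makes adrenal steroids in culture, were exposed to forskolin, and the RNA of these cultures was compared with that of cultures kept in dimethyl sulfoxide (DMSO). The comparison holds 6 of the 12 polyA-selected RNA-seq libraries of the series, 3 with forskolin and 3 baseline libraries, chosen by their treatment labels. All cultures grew in DMEM/F12 medium with 10% Nu serum and an insulin-transferrin-selenium supplement, in multi-well plates, and each group had 3 biological replicates. The baseline cultures (baseline) received DMSO for 96 h. The forskolin cultures (FSK) received DMSO for 48 h and then 10 µM forskolin for a further 48 h, so both groups spent 96 h in culture and differed in what they received in the last 48 h. The other 6 libraries came from cultures given 62 µM EPZ-6438, an inhibitor of the histone methyltransferase EZH2 (EZH2i), or 26 µM PRI-724, an inhibitor of the interaction between beta-catenin and its coactivator CBP (CBPi), each for 96 h and at its IC50 dose, per the labels. These 6 libraries served here to share the estimate of the spread and, in the last comparison, to show where forskolin stood apart. All 12 libraries came from 1 tumour line, so p-values measure the spread between replicate cultures of that line and not between tumours or people. Forskolin was given at a single dose and read at a single time.

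Forskolin binds adenylyl cyclases and drives them to make cyclic AMP, the messenger through which corticotropin (ACTH) acts on the adrenal cortex. Cyclic AMP releases the catalytic subunits of protein kinase A, which phosphorylate the transcription factor CREB. CREB binds the cyclic AMP response element (CRE, TGACGTCA), and with it genes for other transcription factors, for secreted peptides and for feedback inhibitors are switched on. In adrenocortical cells the same messenger raises delivery of cholesterol to mitochondria and, over hours to days, transcription of steroidogenic enzymes with the nuclear receptor SF-1 (NR5A1). Wnt and beta-catenin signalling marks the outer zone of the adrenal cortex and its progenitors, and the line carries an activating change in beta-catenin, which makes Wnt target genes a further readout in these cells.

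The sequences below are stretches of 88 bases around the CRE of 6 promoters, shown because they carry, base for base, the element through which cyclic AMP is known to act, and because 1 of the 6 belongs to a gene that moved the other way. They were taken from RefSeq promoter windows of GRCh38.p14 and run 5′ to 3′ on the strand of the gene, with TGACGTCA in capitals. VGF (chr7:101165601-101165688, minus strand) encodes a secreted neuropeptide precursor, and AREG (chr4:74445031-74445118, plus strand) encodes the EGF receptor ligand amphiregulin. PCSK1 (chr5:96433278-96433365, minus strand) encodes prohormone convertase 1, and CGA (chr6:87095201-87095288, minus strand) encodes the common alpha subunit of the glycoprotein hormones and holds 2 copies of the element. DUSP1 (chr5:172771273-172771360, minus strand) encodes a phosphatase of MAP kinases, and HHIP (chr4:144646041-144646128, plus strand) encodes a Hedgehog-binding protein. CGA and HHIP were chosen after their values were seen. The 6 do not show how often the element occurs in genes that rose or fell. Among tested genes it was in 30 of 1030 windows of those more than 1.5-fold higher. For those more than 1.5-fold lower it was in 24 of 1464 windows.
VGF: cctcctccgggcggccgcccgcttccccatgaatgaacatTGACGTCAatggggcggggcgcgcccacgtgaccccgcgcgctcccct
AREG: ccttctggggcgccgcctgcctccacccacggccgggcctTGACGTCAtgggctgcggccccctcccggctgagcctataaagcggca
PCSK1: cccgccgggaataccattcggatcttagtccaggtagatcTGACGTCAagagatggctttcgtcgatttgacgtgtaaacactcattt
CGA: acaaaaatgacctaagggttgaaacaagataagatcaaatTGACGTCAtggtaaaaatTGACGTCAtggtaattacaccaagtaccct
DUSP1: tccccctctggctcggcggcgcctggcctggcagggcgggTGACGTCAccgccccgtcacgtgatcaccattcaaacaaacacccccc
HHIP: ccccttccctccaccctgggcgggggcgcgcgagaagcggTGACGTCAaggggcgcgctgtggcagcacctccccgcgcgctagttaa
A match is a description of the letters in the window and does not show that CREB was bound there in these cells.

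VGF (gene body chr7:101162509-101165593 in GENCODE v29, build GRCh38, as for the positions of genes below) measured 414, 454 and 434 CPM in the baseline libraries and 8196, 8522 and 9025 CPM with forskolin, where CPM is the gene's count per megacount of its library, after scaling for library composition. Every forskolin library lay far above every baseline library, with a mean of 8581 ± 418 CPM (SD of 3 libraries, as for every mean below) against 434 ± 19.7 CPM, a 19.8-fold rise (log2 fold change 4.30 ± 0.15, adjusted p = 6.16e-09). Log2 fold changes are edgeR estimates given with their standard error, and adjusted p-values come from the quasi-likelihood test of edgeR, adjusted by Benjamini and Hochberg's method over all genes tested. AREG measured 0.228, 0.331 and 0.329 CPM in the baseline libraries and 6.9, 8.2 and 7.04 CPM with forskolin and rose 24.4-fold (log2 fold change 4.61 ± 0.23, adjusted p = 6.80e-13). PCSK1 measured 1.82, 1.44 and 1.5 CPM in the baseline libraries and 6.9, 6.46 and 6.5 CPM with forskolin and rose 4.18-fold (log2 fold change 2.06 ± 0.14, adjusted p = 1.64e-10). In both genes the lowest forskolin library was above the highest baseline library, a separation seen in 28.8% of all genes tested in this direction and in 28.7% in the other. CGA rose from 2.19 ± 0.5 to 6.73 ± 1.4 CPM (log2 fold change 1.63 ± 0.19, adjusted p = 3.60e-07). DUSP1 rose from 27.6 ± 1.5 to 65.5 ± 2.2 CPM (log2 fold change 1.24 ± 0.07, adjusted p = 8.49e-12). HHIP, with the same 8 letters, measured 2.23, 2.35 and 2.82 CPM in the baseline libraries and 0.575, 0.455 and 0.403 CPM with forskolin and fell 5.09-fold (log2 fold change -2.35 ± 0.22, adjusted p = 2.00e-08), and its groups did not overlap either.

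The 6 libraries were close in depth, with 21.05 to 27.02 megacounts of assigned reads at baseline and 23.41 to 25.37 megacounts with forskolin, and in the share of counts from mitochondrial transcripts (2.368 to 3.223% and 2.642 to 3.224%). Libraries of the same group correlated more closely (Pearson's r of log2 CPM across genes 0.9928 to 0.9939 within baseline and 0.9932 to 0.9938 within forskolin) than libraries of different groups (0.9674 to 0.9713). Composition factors (TMM) were 1.01 in each baseline library and 0.954 to 0.972 with forskolin, so the choice of scaling touches small differences. Of 10 adrenocortical marker genes 8 rose, while NR0B1 and GATA6 fell. Of all genes tested 25.5% rose and 25.1% fell. These markers recur among the steroid synthesis genes and adrenal regulators described below, so they are no separate reading of cell identity. The summed marker level was 2128 to 2204 CPM at baseline and 4131 to 4369 CPM with forskolin. The defining chromaffin genes PNMT and SLC18A1 were at 0 in all 6 libraries, as were PTPRC and CD3E of the 7 leukocyte and macrophage markers. The summed level of those 7 was 2.23 to 2.85 CPM at baseline and 2.42 to 3.25 CPM with forskolin. Of the 3 tested, CD68 rose from at most 0.182 CPM to at most 1.06 CPM, and the other two did not pass. The 6 endothelial markers summed to 0.81 to 1.34 CPM and 0.986 to 1.28 CPM, and of the 3 tested VWF rose, to at most 1.12 CPM, and KDR and TEK fell, from at most 0.638 and 0.565 CPM, KDR with a call lost without baseline replicate 1. The part of these low levels in other results was not tested. In bulk RNA a change in the make-up of the culture and a change in RNA per cell cannot be told apart.

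Of 20360 genes tested, 5197 were higher with forskolin (25.5%) and 5102 were lower (25.1%), together 10299 (50.6%) at an adjusted p below 0.05. Most of these shifts were small. The median size among them was 1.39-fold. A stricter test against a 1.5-fold change left 1088 genes higher (5.34%) and 1313 lower (6.45%). The forskolin and baseline libraries did not overlap in 11713 genes (57.5%). That share stands beside every statement below that groups were separate, and such separation adds little to the adjusted p-value. The typical variation between replicates, the biological coefficient of variation, was 4.98%, and at this spread differences well below 1.5-fold could pass. Under scaling by library size alone the split moved to 4119 higher and 6257 lower, with a median log2 fold change over all genes of −0.0543 in place of 0.0146. The plot of change against level shows all genes tested.

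**Figure D1:**
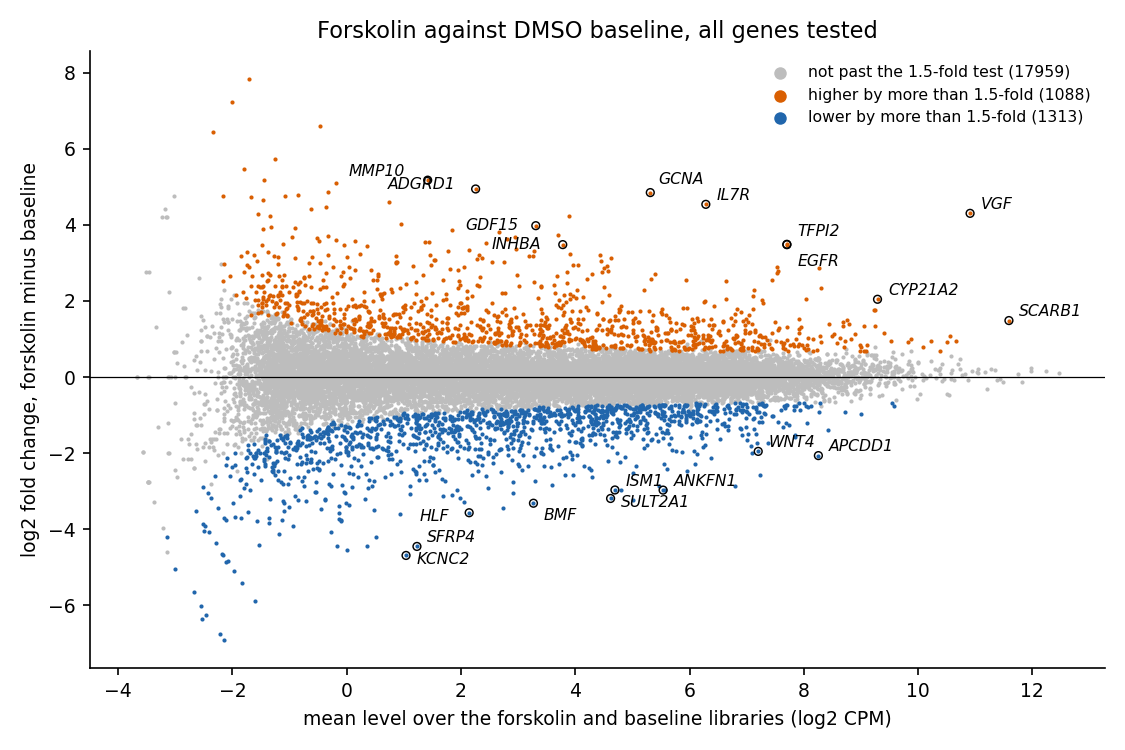
Log2 fold change of forskolin against baseline (vertical axis) against the mean log2 CPM of each gene (horizontal axis), 1 point per gene tested. The 1088 genes above 1.5-fold higher and the 1313 above 1.5-fold lower lie at all levels, and VGF lies at the upper right.

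Among genes whose mean log2 CPM was 1 or more and whose groups did not overlap, the largest rises were in MMP10, ADGRD1 and GCNA. MMP10 (chr11:102770503-102780628), stromelysin-2, a secreted protease, had the largest fold and measured 0.41, 0.515 and 0.282 CPM in the baseline libraries and 15.3, 14 and 15.9 CPM with forskolin (log2 fold change 5.18 ± 0.17, adjusted p = 1.88e-15). ADGRD1, an adhesion G protein-coupled receptor that couples to cyclic AMP production, measured 0.73, 0.92 and 0.8 CPM in the baseline libraries and 26.4, 25.1 and 25.1 CPM with forskolin (log2 fold change 4.95 ± 0.16, adjusted p = 9.40e-16). GCNA, a germ-cell nuclear protein, measured 8.16, 7.65 and 6.3 CPM in the baseline libraries and 220.1, 198 and 222 CPM with forskolin (log2 fold change 4.85 ± 0.08, adjusted p = 2.37e-20). In each of the 3 genes the baseline values lay close to 0 or under 10 CPM and the forskolin values were tightly grouped far above them. Separate groups were a condition of the choice, so the separation is no added evidence for these rises. IL7R, the receptor for interleukin-7, rose from 16.1 ± 1.1 to 376 ± 12 CPM (23.3-fold). TFPI2, an extracellular protease inhibitor, rose from 62.2 ± 2.1 to 699 ± 46 CPM (11.2-fold). PMEPA1, a membrane protein that restrains TGF-beta signalling, rose from 3.41 ± 0.62 to 64.5 ± 3.05 CPM (18.9-fold). Its promoter window also holds TGACGTCA, as does that of HLF, which fell (below). GDF15, a stress-induced hormone of the TGF-beta family, rose from 2.47 ± 0.28 to 38.7 ± 0.99 CPM (15.8-fold). UTS2, the vasoactive peptide urotensin-2, rose from 1.55 ± 0.13 to 18.1 ± 1.3 CPM, and AQP3, a water and glycerol channel, from 1.98 ± 0.51 to 24.3 ± 0.87 CPM. PAPPA2, a protease that cleaves IGF-binding proteins, rose from 0.72 ± 0.17 to 8.43 ± 0.46 CPM, and SLC51A, a subunit of a steroid and bile acid transporter, from 0.746 ± 0.14 to 8.85 ± 0.022 CPM. BCAT1, the cytosolic branched-chain aminotransferase, rose from 1.67 ± 0.35 to 23.1 ± 1.4 CPM. CORO2B, an actin-binding coronin, rose from 3.49 ± 0.34 to 47.1 ± 2.8 CPM, and SPRR1B, a cornified-envelope protein, from 0.896 ± 0.015 to 13.2 ± 1.97 CPM.

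Among the same genes the largest falls were in KCNC2, SFRP4 and HLF. KCNC2 (chr12:75040077-75209868), a voltage-gated potassium channel subunit, measured 11.3, 8.87 and 8.7 CPM in the baseline libraries and 0.452, 0.248 and 0.403 CPM with forskolin and fell 25.9-fold (log2 fold change -4.69 ± 0.19, adjusted p = 3.08e-14). SFRP4, a secreted Wnt antagonist, measured 9.67, 10.7 and 10.6 CPM in the baseline libraries and 0.288, 0.497 and 0.628 CPM with forskolin and fell 21.9-fold (log2 fold change -4.46 ± 0.20, adjusted p = 1.27e-13). The forskolin libraries of both genes were below 1 CPM, so their exact fold rests on few counts. ANGPTL1, an angiopoietin-like secreted protein, fell from 21.6 ± 2.3 to 1.97 ± 0.13 CPM. RGS5, a regulator that shortens G protein signals, fell from 98.1 ± 0.95 to 10.5 ± 1.1 CPM (9.36-fold, adjusted p = 1.23e-18). ADRA2A, the alpha-2A adrenoceptor, which lowers cyclic AMP through Gi proteins, fell from 21.2 ± 0.67 to 2.57 ± 0.28 CPM (8.22-fold, adjusted p = 3.65e-14). ANKFN1, an ankyrin-repeat protein, fell from 129.9 ± 4.8 to 16.5 ± 0.97 CPM, and WSCD2, a membrane sulfotransferase-like protein, from 12.8 ± 0.42 to 1.31 ± 0.4 CPM. CDK15, a cyclin-dependent kinase family member, fell from 10.6 ± 0.89 to 1.34 ± 0.42 CPM, and SELENBP1, a selenium-binding methanethiol oxidase, from 9.17 ± 0.36 to 1.05 ± 0.28 CPM. ST3GAL6, a sialyltransferase, fell from 11.6 ± 0.93 to 1.28 ± 0.27 CPM, and the transcribed pseudogene PGM5P2, which is closely similar to its parent gene and so uncertain in its counts, from 5.95 ± 0.28 to 0.71 ± 0.19 CPM. HLF, BMF, SULT2A1 and PDE11A, the others of the 15 largest falls, belong to lists described below.

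**Figure D2:**
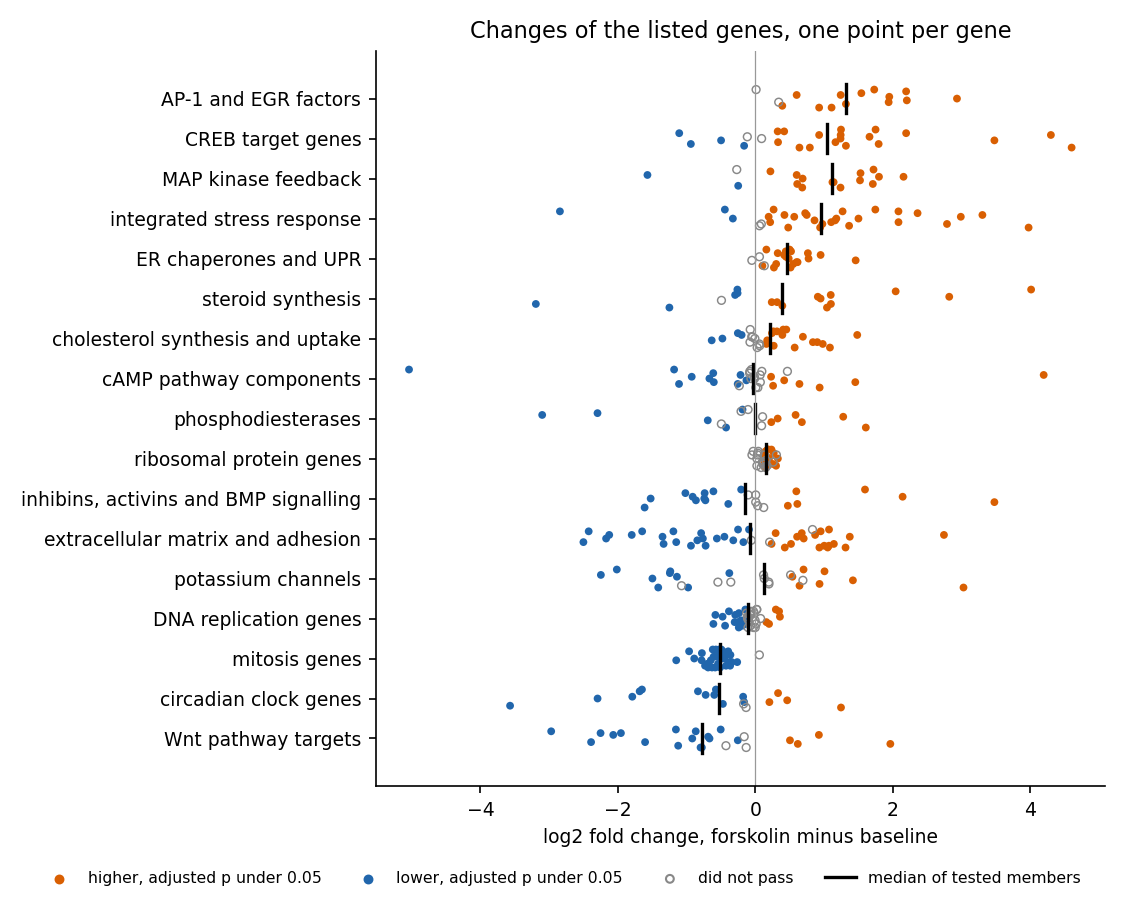
Log2 fold change of forskolin against baseline for every tested gene of 17 lists, 1 point per gene, filled where the adjusted p was below 0.05 and open otherwise, with the list median as a bar. AP-1 and EGR factors, MAP kinase feedback genes and CREB target genes lie mostly to the right of 0, and mitosis genes and Wnt pathway targets mostly to the left.

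Of 30 components of the cyclic AMP pathway itself 7 rose (23.3%) and 10 fell (33.3%). The share that rose was near the 25.5% of all genes tested, and the share that fell was a little above their 25.1%. PRKAR2B, a regulatory subunit of protein kinase A, measured 248, 254 and 242 CPM in the baseline libraries and 674, 650.5 and 718 CPM with forskolin, with no overlap between groups, and rose 2.75-fold (log2 fold change 1.46 ± 0.05, adjusted p = 1.84e-15). PRKAR1A, the regulatory subunit lost in Carney complex, fell slightly, from 249 ± 4.1 to 228 ± 11 CPM (log2 fold change -0.13 ± 0.04, adjusted p = 0.0149), a call lost without forskolin replicate 2 or baseline replicate 2. Of the catalytic subunits PRKACA rose from 227 ± 4.9 to 272 ± 7.5 CPM (adjusted p = 1.03e-05) and PRKACB fell from 47.7 ± 1.7 to 31.3 ± 0.88 CPM (adjusted p = 5.48e-09). PKIA and PKIG, inhibitors of the kinase, fell from 39.7 CPM to 33.2 CPM and from 34.4 CPM to 21.7 CPM. GNAS, the stimulatory G protein subunit upstream of the cyclases, measured 765, 786 and 757 CPM in the baseline libraries and 780.3, 739 and 770.1 CPM with forskolin, with a log2 fold change of -0.01 ± 0.04 (adjusted p = 0.818). Of the cyclases, ADCY1 rose from 13.4 CPM to 25.6 CPM and ADCY6 from 161 CPM to 189 CPM, and ADCY7 fell from 5.61 CPM to 2.58 CPM. ADCY3 and ADCY9 did not pass, with log2 fold changes of 0.07 ± 0.05 and -0.08 ± 0.07. ADCY2 was called higher (adjusted p = 0.0226) and ADCY5 lower (adjusted p = 0.00482), and both are in the counts above. Each was at 0 in all libraries of 1 group and below 0.2 CPM on average in the other, so these calls rest on few counts. RAPGEF3 and RAPGEF4, the EPAC exchange factors through which cyclic AMP acts apart from protein kinase A, both fell, from 3.43 ± 0.55 CPM to 1.49 ± 0.22 CPM and from 8.05 ± 0.59 CPM to 4.24 ± 0.13 CPM.

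CREB1 itself did not pass (5.01 ± 0.66 CPM at baseline and 4.24 ± 0.38 CPM with forskolin, log2 fold change -0.23 ± 0.13, adjusted p = 0.135), nor did the coactivator CREBBP (log2 fold change -0.08 ± 0.06). CREM, which encodes both activators and the inducible repressor ICER, rose 1.34-fold (log2 fold change 0.42 ± 0.05, adjusted p = 1.32e-07). The CREB coactivators CRTC2 and CRTC3 fell, from 68.6 CPM to 59.1 CPM and from 73.9 CPM to 48.7 CPM. SIK1, a kinase that returns CRTC proteins to the cytoplasm and is itself a CREB target, rose from 9.28 ± 0.62 to 14.5 ± 0.37 CPM (log2 fold change 0.64 ± 0.09, adjusted p = 3.44e-06).

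Of 16 tested phosphodiesterases, which break down cyclic nucleotides, 6 rose (37.5%) and 5 fell (31.2%), both a little above the 25.5% and 25.1% of all genes tested. PDE10A, which degrades both cyclic AMP and cyclic GMP, measured 16.2, 13.1 and 15.2 CPM in the baseline libraries and 42.1, 45.6 and 48 CPM with forskolin and rose 3.05-fold (log2 fold change 1.61 ± 0.08, adjusted p = 7.31e-13). PDE3A, a cyclic AMP phosphodiesterase that cyclic GMP inhibits, measured 4.61, 4.6 and 4.56 CPM in the baseline libraries and 10.2, 11.7 and 11.6 CPM with forskolin and rose 2.43-fold (log2 fold change 1.28 ± 0.10, adjusted p = 1.16e-09). PDE11A, whose inactivating variants are known in adrenocortical hyperplasia, measured 11.2, 10.8 and 8.56 CPM in the baseline libraries and 1.15, 0.91 and 1.52 CPM with forskolin and fell 8.58-fold (log2 fold change -3.10 ± 0.17, adjusted p = 3.28e-12). None of these 3 genes had overlapping groups, which held in 57.5% of all genes tested. PDE5A, specific for cyclic GMP, fell from 10.6 ± 1.1 to 2.17 ± 0.37 CPM (4.91-fold). PDE2A, the phosphodiesterase that cyclic GMP stimulates, fell from 564 ± 15 to 496 ± 7.8 CPM (log2 fold change -0.18 ± 0.04, adjusted p = 2.93e-04). PDE7B rose from 38.4 CPM to 57.7 CPM and PDE8A from 47.6 CPM to 56 CPM. PDE7A fell from 20.9 CPM to 15.5 CPM and PDE6D from 20.8 CPM to 12.9 CPM. PDE8B, known for its high level in the adrenal, did not pass (1.11 ± 0.15 and 1.03 ± 0.11 CPM).

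Target genes of CREB were mostly higher at 48 h. Of 24 tested 18 rose (75%) and 4 fell (16.7%), against 25.5% and 25.1% of all genes tested. The median log2 fold change of the list was 1.05, against 0.0146 over all genes tested. NR4A3, an orphan nuclear receptor of the NR4A family, measured 63.2, 60.9 and 59.8 CPM in the baseline libraries and 204, 211 and 224 CPM with forskolin (log2 fold change 1.80 ± 0.05, adjusted p = 2.78e-16). NR4A2, its relative, rose from 4.69 ± 0.56 to 15 ± 1.1 CPM (3.17-fold), and NR4A1 rose 3.37-fold. INHBA, the activin A subunit, measured 3.74, 3.61 and 4.99 CPM in the baseline libraries and 46.1, 47.7 and 42.9 CPM with forskolin and rose 11.2-fold (log2 fold change 3.48 ± 0.09, adjusted p = 5.78e-17). BDNF, a neurotrophin, rose from 9.24 ± 0.89 to 20.9 ± 1.9 CPM, and IRS2, the insulin receptor substrate, from 462 ± 25 to 803 ± 59 CPM (log2 fold change 0.80 ± 0.11, adjusted p = 1.72e-04). The 4 genes that fell were CEBPD (from 9.54 CPM to 4.98 CPM), PPARGC1A (from 2.31 CPM to 1.07 CPM), RGS2 (from 17.8 CPM to 12.7 CPM) and PER1 (from 86.7 CPM to 77.5 CPM). CEBPB and PDE4D did not pass.

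AP-1 and EGR factors, which answer within minutes to growth signals and to cyclic AMP, were higher at 48 h. Of 15 tested 13 rose (86.7%), against 25.5% of all genes tested, and the other 2 did not pass. FOSB measured 2.92, 3.9 and 2.68 CPM in the baseline libraries and 11.4, 16.6 and 16.4 CPM with forskolin and rose 4.59-fold (log2 fold change 2.20 ± 0.26, adjusted p = 1.49e-05). FOSL1, the AP-1 subunit most tied to ERK signalling, measured 0.821, 1.14 and 0.894 CPM in the baseline libraries and 6.9, 7.16 and 8.25 CPM with forskolin and rose 7.66-fold (log2 fold change 2.94 ± 0.18, adjusted p = 1.68e-11). EGR3 rose from 0.305 ± 0.26 to 1.27 ± 0.17 CPM, EGR2 from 1.26 ± 0.11 to 4.18 ± 0.58 CPM and IER3 from 0.693 ± 0.12 to 3.17 ± 0.42 CPM, all at low levels. IER2, JUNB and JUN rose from 61.8 CPM to 180.5 CPM, from 81.8 CPM to 194 CPM and from 42.5 CPM to 91.9 CPM. FOS rose from 5.59 ± 1.02 to 14.2 ± 4.2 CPM (2.5-fold), FOSL2 from 81.3 ± 4.6 to 107 ± 1.1 CPM and ATF3 from 4.48 ± 0.48 to 8.46 ± 0.85 CPM. Of 14 KLF factors 6 were higher (42.9%) and 4 lower (28.6%), the second share near the 25.1% of all genes tested. KLF4 and KLF5 rose from 3.33 CPM to 7.91 CPM and from 1.71 CPM to 4.02 CPM, and KLF9, a glucocorticoid-responsive member, and KLF13 fell from 3.22 CPM to 1.17 CPM and from 12.8 CPM to 6.53 CPM.

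EGFR (chr7:55019021-55211628), the EGF receptor, measured 68.6, 62.1 and 56.9 CPM in the baseline libraries and 648, 720.3 and 725 CPM with forskolin. The lowest forskolin library was above the highest baseline library, and the rise was 11.2-fold (log2 fold change 3.48 ± 0.06, adjusted p = 3.21e-19). The gene was at 107 ± 5.4 CPM in EZH2i and 110.5 ± 2.5 CPM in CBPi. Of its ligands, AREG (above), HBEGF and TGFA rose, the last 2 from 2.63 ± 0.44 CPM to 5.53 ± 0.58 CPM and from 0.139 ± 0.081 CPM to 0.562 ± 0.16 CPM. The neuregulins NRG1, NRG2 and NRG4, ligands of related receptors, fell, from 2.72 CPM to 1.26 CPM, from 5.66 CPM to 2.77 CPM and from 13.2 CPM to 8.64 CPM. Genes that ERK signalling induces and that restrain it in turn were mostly higher. Of 17 MAP kinase feedback genes 14 rose (82.4%) and 2 fell (11.8%), against 25.5% and 25.1% of all genes tested. The median log2 fold change of the list was 1.12. SPRY2, a Sprouty inhibitor of receptor tyrosine kinase signalling, measured 10.8, 12.4 and 11 CPM in the baseline libraries and 52, 50.04 and 51.5 CPM with forskolin (log2 fold change 2.16 ± 0.07, adjusted p = 2.30e-15). DUSP5, a nuclear ERK phosphatase, measured 75.6, 77.3 and 69.1 CPM in the baseline libraries and 266, 260.0 and 249 CPM with forskolin (log2 fold change 1.80 ± 0.06, adjusted p = 5.94e-15). DUSP4, another nuclear phosphatase, measured 17.9, 17.7 and 17.1 CPM in the baseline libraries and 56.8, 55.3 and 61.8 CPM with forskolin (log2 fold change 1.72 ± 0.06, adjusted p = 6.76e-15). In the 3 genes the groups were separate and the forskolin libraries were the high ones. SPRY4 rose from 16.8 CPM to 55.2 CPM, SPRED2 from 15.8 CPM to 34.9 CPM, and the ERK-responsive ETS factors ETV4 and ETV5 from 38.9 CPM to 113 CPM and from 143 CPM to 411 CPM. DUSP6, the cytoplasmic ERK phosphatase, rose from 58 ± 0.97 to 88.6 ± 1.3 CPM (1.53-fold). DUSP10, a phosphatase of the stress kinases p38 and JNK, went the other way, measured 4.97, 5.89 and 4.56 CPM in the baseline libraries and 1.36, 1.45 and 2.46 CPM with forskolin, and fell 2.97-fold (log2 fold change -1.57 ± 0.19, adjusted p = 5.41e-07). ERRFI1, an inhibitor of EGFR, fell from 29.2 ± 2.7 to 24.6 ± 2 CPM (adjusted p = 0.00991), a call that was lost without forskolin replicate 2 or baseline replicate 1. RNA levels do not measure kinase activity, and no phosphoprotein was measured in these libraries.

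**Figure D3:**
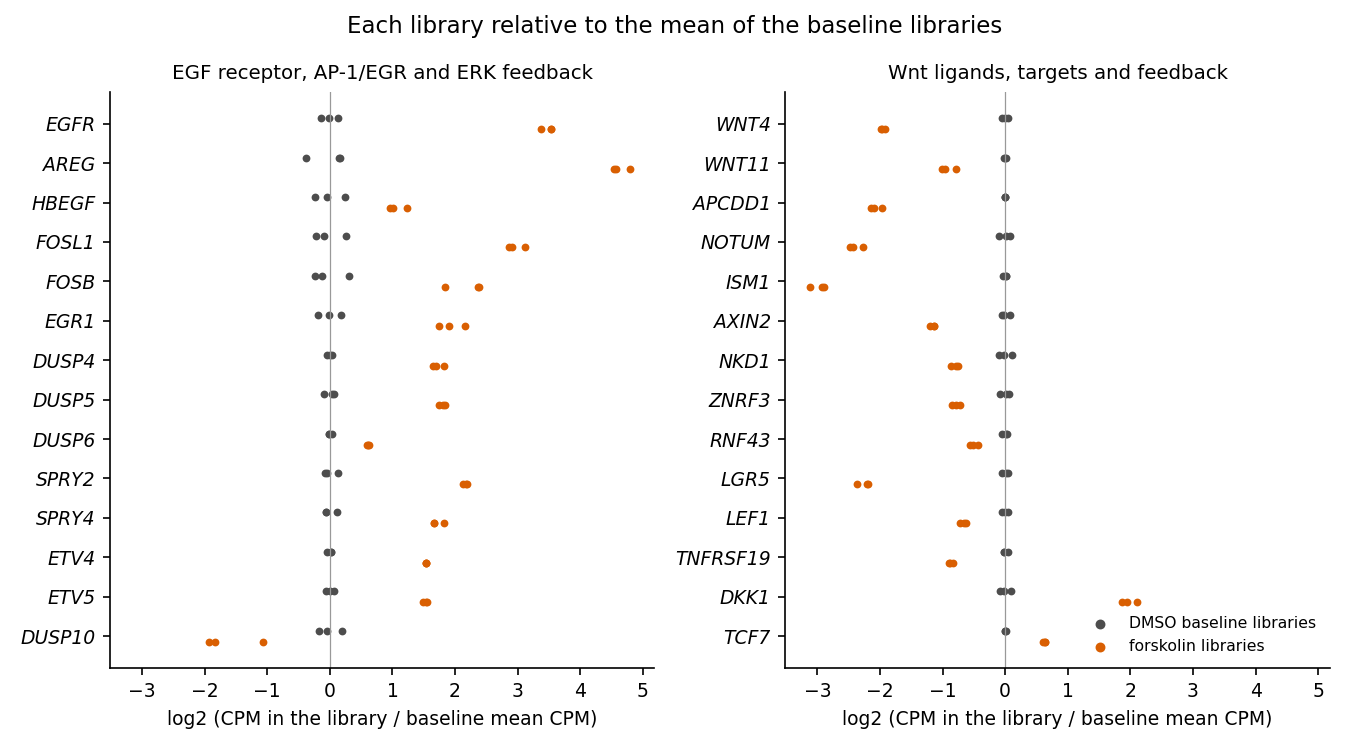
Log2 of each library's CPM relative to the baseline mean of the gene (horizontal axis) for EGF and ERK pathway genes (left panel) and Wnt pathway genes (right panel), with 3 baseline and 3 forskolin libraries per gene. The forskolin points of EGFR, AREG and the Sprouty genes lie to the right of the baseline points, and those of DUSP10 to the left. In most Wnt genes the forskolin points lie to the left, with those of DKK1 and TCF7 to the right.

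Steroid synthesis genes rose along the route to cortisol and aldosterone. All 4 genes of cholesterol entry and side-chain cleavage rose, as did all 5 of the later steps to glucocorticoids and mineralocorticoids. In the androgen and sulfation arm 1 of 5 rose and 3 fell, and of the 3 electron donors and reductases 1 rose and 2 fell. Over the list of 17 tested 11 rose (64.7%) and 5 fell (29.4%), against 25.5% and 25.1% of all genes tested. The share that fell was thus near that of all genes. Forskolin stood above all 3 other groups in each of the 11, against 12% of all genes tested. It stood below all 3 in 2 of the 5 that fell, against 12.5% of all genes tested. At the entry of the pathway, the electron carrier FDX1 (adrenodoxin) measured 124, 138 and 132 CPM in the baseline libraries and 255, 236 and 272 CPM with forskolin and rose 1.93-fold (log2 fold change 0.95 ± 0.05, adjusted p = 8.12e-12). STAR, which carries cholesterol into mitochondria, rose 1.88-fold. FDXR, which feeds electrons to adrenodoxin, rose from 417 ± 15 to 548 ± 9.5 CPM (1.31-fold). CYP11A1, which cuts the cholesterol side chain with these electrons, rose least of the 11 that rose (1.18-fold, log2 fold change 0.24 ± 0.04, adjusted p = 5.17e-05). POR, the electron donor of the microsomal P450 enzymes, rose from 534 ± 16 to 665 ± 22 CPM (adjusted p = 5.37e-05). CYP17A1, which opens the way to cortisol and androgens, rose from 63.4 ± 2.9 to 136 ± 2.3 CPM (2.15-fold), and HSD3B2, which makes progesterone, from 78.5 ± 6.6 to 162 ± 2.8 CPM (2.06-fold). CYP21A2, steroid 21-hydroxylase, rose 4.13-fold. It shares most of its sequence with the pseudogene CYP21A1P, named after its value was seen, whose counts rose from 76.2 ± 2.9 to 311 ± 8.8 CPM (4.08-fold), so how the counts divide between them is uncertain. CYP11B1 and CYP11B2, the last enzymes of cortisol and aldosterone synthesis, are near-identical too, and their folds (16.2-fold and 7.08-fold) are uncertain in the same way.

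In the androgen and sulfation arm the enzymes parted. PAPSS2, which makes the sulfate donor for DHEA sulfation, measured 19.7, 20.8 and 17.6 CPM in the baseline libraries and 41.2, 40.3 and 43.7 CPM with forskolin and rose 2.14-fold (log2 fold change 1.10 ± 0.08, adjusted p = 2.85e-10). SULT2A1, the sulfotransferase that uses this donor, fell 9.15-fold (log2 fold change -3.19 ± 0.08, adjusted p = 1.28e-17). This low level was not particular to forskolin. SULT2A1 was at 74.2 ± 5.3 CPM in baseline, 9.28 ± 0.57 CPM in EZH2i, 9.92 ± 0.56 CPM in CBPi and 8.08 ± 0.8 CPM in FSK. AKR1C3, which makes testosterone from androstenedione, measured 48.6, 50.05 and 51.3 CPM in the baseline libraries and 23.4, 20.2 and 19.3 CPM with forskolin and fell 2.38-fold (log2 fold change -1.25 ± 0.06, adjusted p = 1.04e-12). In each of PAPSS2, SULT2A1 and AKR1C3 the forskolin and baseline libraries did not overlap. CYB5A, cytochrome b5, which favours the lyase step of CYP17A1, fell from 29.1 ± 1.5 to 23.8 ± 0.87 CPM (adjusted p = 0.00246). SRD5A1, 5-alpha-reductase, fell from 47.6 CPM to 39.7 CPM and H6PD, which supplies NADPH in the endoplasmic reticulum, from 65.6 CPM to 54.9 CPM, and HSD17B6 did not pass.

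**Figure D4:**
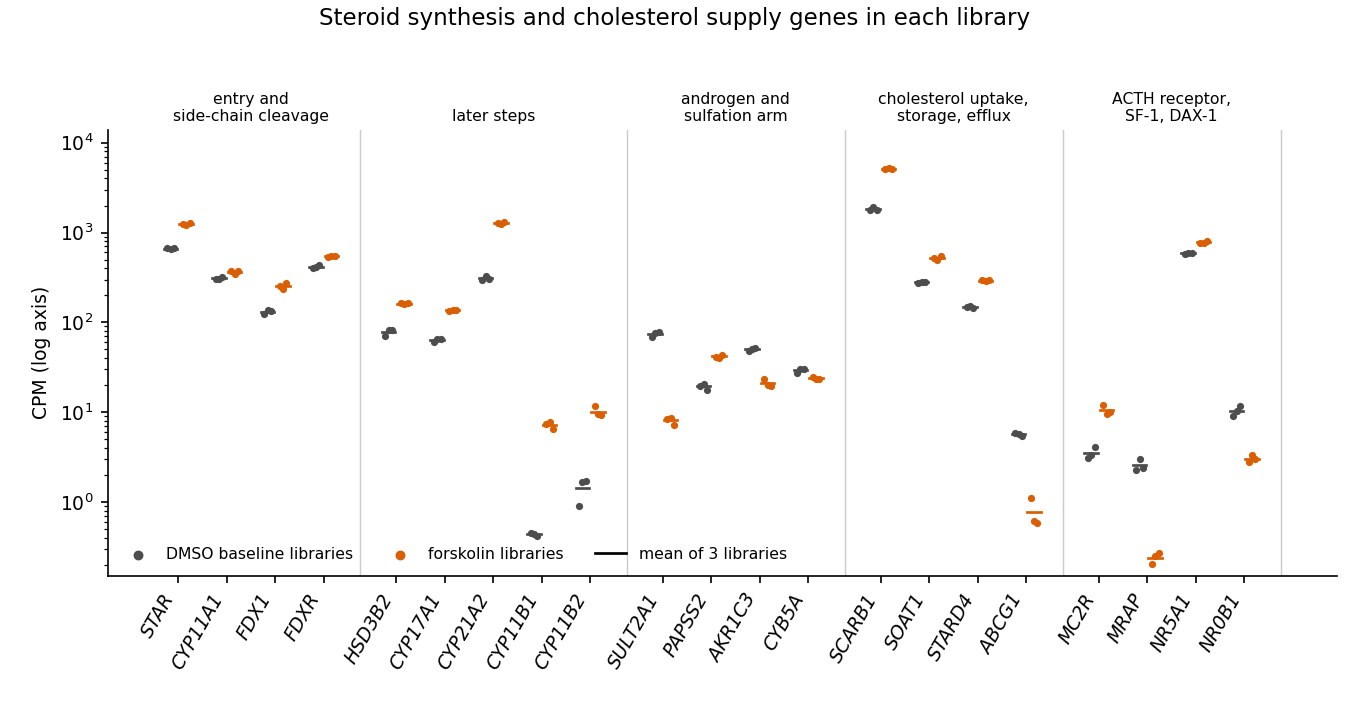
CPM of each library on a log axis for genes of steroid synthesis, cholesterol supply and their regulators, with 3 baseline and 3 forskolin libraries per gene. The forskolin points of FDX1, PAPSS2 and SCARB1 lie above the baseline points, and those of SULT2A1, AKR1C3, CYB5A, ABCG1, MRAP and NR0B1 lie below.

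Genes of cholesterol supply were mostly higher. Of 28 tested 16 rose (57.1%) and 4 fell (14.3%), against 25.5% and 25.1% of all genes tested. The median log2 fold change of the list was 0.21. SCARB1 (chr12:124776856-124882668), the HDL receptor through which adrenal cells take up cholesteryl esters, measured 1804, 1932 and 1782 CPM in the baseline libraries and 5070, 5247 and 5134 CPM with forskolin and rose 2.8-fold (log2 fold change 1.49 ± 0.04, adjusted p = 1.59e-16). SOAT1, which esterifies cholesterol for storage in droplets, measured 277, 279 and 282 CPM in the baseline libraries and 523, 500.1 and 544 CPM with forskolin (log2 fold change 0.90 ± 0.04, adjusted p = 1.22e-13). Every forskolin library was above every baseline library in both genes. STARD4, a cytosolic cholesterol carrier, rose from 148 ± 2.9 to 292 ± 5.01 CPM, and NPC1, which exports cholesterol from lysosomes, from 63 ± 3.01 to 78.4 ± 0.53 CPM, while its partner NPC2 fell from 58.6 ± 1.1 to 42.1 ± 4 CPM. LIPE, the hormone-sensitive lipase that releases stored cholesterol, fell from 77.4 ± 4.4 to 67.6 ± 0.98 CPM (adjusted p = 0.00678), a call lost without baseline replicate 2. INSIG1, which holds SREBP precursors in the endoplasmic reticulum, fell from 74.5 ± 3.8 to 48 ± 3.4 CPM (adjusted p = 1.17e-08). Of 18 synthesis genes 11 rose and 1 fell. DHCR7, the last step, rose most, from 149 ± 7.5 to 267 ± 8.7 CPM, followed by MVD (from 35 CPM to 56.6 CPM), CYP51A1 (from 33.6 CPM to 50.1 CPM), EBP (from 58.8 CPM to 80.4 CPM) and MSMO1 (from 30.1 CPM to 39.9 CPM). The gene that fell, PMVK (from 33.3 CPM to 27.9 CPM), lost that call without forskolin replicate 2. SREBF2, the main regulator of this pathway, did not pass (log2 fold change -0.04 ± 0.05, adjusted p = 0.556).

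SREBF1, the regulator of fatty acid synthesis and an LXR target, measured 93.2, 85.8 and 87.8 CPM in the baseline libraries and 27.6, 29.7 and 30.4 CPM with forskolin and fell 3.04-fold (log2 fold change -1.60 ± 0.07, adjusted p = 1.36e-13). ABCG1, a cholesterol exporter and LXR target, measured 5.88, 5.67 and 5.41 CPM in the baseline libraries and 1.11, 0.621 and 0.583 CPM with forskolin and fell 7.25-fold (log2 fold change -2.86 ± 0.18, adjusted p = 3.45e-11). Both genes were lower in each forskolin library. MYLIP, an LXR-induced ubiquitin ligase, fell from 10.4 ± 0.5 to 5.4 ± 0.21 CPM (1.93-fold), and LPCAT3 from 34 ± 1.4 to 27 ± 0.99 CPM. ABCA1, another LXR target, did not pass (11 ± 1.5 and 10.5 ± 0.55 CPM, adjusted p = 0.573). APOE rose from 1.62 ± 0.53 to 2.75 ± 0.52 CPM (adjusted p = 0.00458), a call lost without baseline replicate 2. Of the enzymes downstream of SREBF1, FASN and ACLY rose from 239 CPM to 304 CPM and from 174 CPM to 199 CPM, and SCD, ELOVL6, FADS1 and ME1 fell. MLXIPL, the glucose-sensing factor ChREBP, rose from 1.65 CPM to 3.04 CPM.

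Of 15 regulators of the adrenal cell type tested 6 rose (40%) and 6 fell (40%), against 25.5% and 25.1% of all genes tested. MC2R, the ACTH receptor, rose 3.01-fold, whereas MRAP, the accessory protein that brings it to the surface, fell and was below 1 CPM with forskolin. MGARP, a mitochondrial protein abundant in steroidogenic cells, measured 33.2, 32.6 and 35 CPM in the baseline libraries and 10.2, 10.4 and 11.6 CPM with forskolin and fell 3.14-fold (log2 fold change -1.65 ± 0.07, adjusted p = 6.91e-14). NR2F2 (COUP-TFII), a nuclear receptor that competes with SF-1 at its sites, measured 161, 150.1 and 146 CPM in the baseline libraries and 80.8, 82.9 and 87.1 CPM with forskolin and fell 1.82-fold (log2 fold change -0.86 ± 0.07, adjusted p = 1.06e-08). The groups did not overlap in either of these genes. NR2F1 fell from 3.47 CPM to 1.51 CPM, GATA6 fell from 20.8 CPM to 15.4 CPM, and DAB2, a glomerulosa marker in humans, rose from 463 CPM to 546 CPM. GATA4, CITED2 and FATE1 did not pass.

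Channels and markers of the zona glomerulosa, the aldosterone-making outer layer, went both ways. Of 16 tested 5 rose (31.2%) and 8 fell (50%), the first share near that of all genes tested. CACNA1H, the T-type calcium channel of familial hyperaldosteronism, measured 69.4, 65.3 and 65.2 CPM in the baseline libraries and 172, 194 and 193 CPM with forskolin and rose 2.8-fold (log2 fold change 1.48 ± 0.08, adjusted p = 5.11e-11). CACNA1D, the L-type channel mutated in aldosterone-producing adenomas, measured 69.5, 61.5 and 60.7 CPM in the baseline libraries and 22.1, 24.1 and 22.3 CPM with forskolin and fell 2.8-fold (log2 fold change -1.48 ± 0.07, adjusted p = 4.80e-13). In both, the forskolin and baseline libraries were separate. KCNK3, a background potassium channel that sets the resting potential, rose from 1257 ± 25 to 1830 ± 71 CPM and KCNK9, its relative, from 1.95 ± 0.3 to 3.97 ± 0.25 CPM. KCNK2, another background channel that cyclic AMP closes, fell from 11 ± 0.61 to 2.71 ± 0.12 CPM (4.04-fold), and KCNJ5, the inward rectifier mutated in adenomas, from 283 ± 5.4 to 218 ± 5.7 CPM. CACNA1C and ATP2B3 rose from 61.7 CPM to 78.3 CPM and from 15.6 CPM to 24 CPM. The angiotensin receptor gene AGTR1 fell from 65.5 ± 2.3 to 32.5 ± 1.1 CPM (log2 fold change -1.01 ± 0.05, adjusted p = 1.90e-12), VSNL1 from 41.8 ± 1.6 to 15.4 ± 1.3 CPM, CALN1 from 43.5 ± 2.98 to 14.4 ± 0.97 CPM and DACH1 from 38.9 ± 2.7 to 22.8 ± 1.8 CPM.

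Wnt pathway genes were mostly lower. Of 23 tested 16 fell (69.6%) and 4 rose (17.4%), against 25.1% and 25.5% of all genes tested. By role, 8 of 10 feedback genes, 5 of 9 stem and growth genes and 3 of 4 Wnt ligands fell. The median log2 fold change of the list was -0.78. APCDD1 (chr18:10454628-10489948), a membrane inhibitor of Wnt signalling that beta-catenin induces, measured 625, 628 and 624 CPM in the baseline libraries and 160.2, 142 and 146 CPM with forskolin and fell 4.19-fold (log2 fold change -2.07 ± 0.05, adjusted p = 3.86e-17). NOTUM, a secreted Wnt-inactivating enzyme, measured 43.2, 40.3 and 45.4 CPM in the baseline libraries and 7.97, 7.7 and 8.92 CPM with forskolin and fell 5.24-fold (log2 fold change -2.39 ± 0.10, adjusted p = 4.21e-13). LGR5, a receptor that amplifies Wnt signals, measured 13.1, 12.2 and 12.8 CPM in the baseline libraries and 2.46, 2.77 and 2.73 CPM with forskolin and fell 4.76-fold (log2 fold change -2.25 ± 0.10, adjusted p = 7.65e-14). Every forskolin library was below every baseline library in these 3 genes. AXIN2, the most widely used readout of the pathway, measured 108, 98.9 and 101 CPM in the baseline libraries and 44.9, 46.9 and 46.5 CPM with forskolin and fell 2.23-fold (log2 fold change -1.15 ± 0.04, adjusted p = 1.80e-14). ISM1, a secreted protein, fell from 72.3 ± 1.2 to 9.2 ± 0.75 CPM (7.84-fold). The feedback inhibitors NKD1, ZNRF3 and RNF43 fell, from 353 ± 26 CPM to 203 ± 8.5 CPM, from 151 ± 7.9 CPM to 88.1 ± 3.9 CPM and from 82.9 ± 2.3 CPM to 58.5 ± 2.4 CPM. LGR4, TNFRSF19, SP5 and ASCL2 fell from 15.3 CPM to 7.04 CPM, from 260.5 CPM to 143 CPM, from 5.51 CPM to 3.41 CPM and from 1.14 CPM to 0.367 CPM, and LEF1, a partner of beta-catenin on DNA, fell from 93 ± 2.9 to 58.7 ± 1.8 CPM. WNT4, a ligand that marks the outer cortex, fell from 289.8 ± 10.1 to 74.7 ± 2.03 CPM (3.88-fold, adjusted p = 1.07e-16). WNT11, a ligand of the developing gland, measured 119, 120.1 and 118 CPM in the baseline libraries and 59.2, 60.9 and 69.1 CPM with forskolin and fell 1.89-fold (log2 fold change -0.92 ± 0.09, adjusted p = 2.59e-07). WNT5A fell slightly, from 37.1 ± 0.98 to 31.1 ± 1.3 CPM.

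The 4 genes of the list that rose were DKK1, NKD2, MYC and TCF7. DKK1, a secreted antagonist of the Wnt coreceptor, measured 6.79, 7.65 and 7.06 CPM in the baseline libraries and 30.7, 27.5 and 26.1 CPM with forskolin and rose 3.91-fold (log2 fold change 1.97 ± 0.09, adjusted p = 1.29e-13). TCF7, a DNA-binding partner of beta-catenin, rose from 80.6 ± 0.38 to 124 ± 1.5 CPM, MYC from 58.4 ± 1.4 to 82.9 ± 2.4 CPM and NKD2 from 1.1 ± 0.4 to 2.07 ± 0.31 CPM. The beta-catenin gene CTNNB1, added after its value was seen, measured 1254, 1298 and 1287 CPM in the baseline libraries and 1265, 1233 and 1260 CPM with forskolin, with a log2 fold change of -0.03 ± 0.03 (adjusted p = 0.493), and it was called lower under scaling by library size alone. For AXIN2 the level was 193 ± 3.3 CPM in EZH2i and 172 ± 3.03 CPM in CBPi, and for APCDD1 it was 1202 ± 39 and 756 ± 58 CPM. Forskolin was below all 3 other groups in 15 of the 23 genes, against 12.5% of all genes tested.

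Activin and BMP pathway genes moved both ways. Of 22 tested 6 rose (27.3%), INHBA among them, and 11 fell (50%), against 25.5% and 25.1% of all genes tested. The share that rose was thus near that of all genes. FST, the secreted activin antagonist, measured 54, 53.8 and 56.7 CPM in the baseline libraries and 20.3, 18.9 and 18 CPM with forskolin and fell 2.87-fold (log2 fold change -1.52 ± 0.06, adjusted p = 2.27e-14). INHBE rose from 1.58 ± 0.51 to 4.79 ± 0.16 CPM, and INHA, the inhibin alpha subunit, did not pass (log2 fold change -0.10 ± 0.12, adjusted p = 0.504). Of 8 target and feedback genes 6 fell and 2 rose. ID3, a BMP-induced inhibitor of helix-loop-helix factors, measured 78.8, 85.5 and 78.6 CPM in the baseline libraries and 27.2, 26.2 and 26.3 CPM with forskolin and fell 3.05-fold (log2 fold change -1.61 ± 0.07, adjusted p = 9.12e-13), with no overlap between groups. ID1 fell from 30.9 ± 0.086 to 15.3 ± 0.42 CPM, ID2 from 307 ± 8.8 to 169 ± 12 CPM, and the inhibitory SMADs SMAD6 and SMAD7 from 68.5 CPM to 44.9 CPM and from 34.4 CPM to 20.6 CPM. BAMBI, a pseudoreceptor that blocks the pathway, fell from 16.1 CPM to 8.6 CPM. SKIL, a feedback inhibitor of SMAD signalling, rose from 96.2 ± 6.8 to 147 ± 3.05 CPM. Of the receptors, TGFBR1 and BMPR2 rose from 162 CPM to 225 CPM and from 53.9 CPM to 81.7 CPM. TGFBR2, TGFBR3 and BMPR1A fell, from 72.6 CPM to 43.6 CPM, from 59.6 CPM to 36.1 CPM and from 37.6 CPM to 28.6 CPM.

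Clock genes were mostly lower, among them the PAR-bZIP output factors. Of 18 tested 12 fell (66.7%) and 4 rose (22.2%), the second share near the 25.5% of all genes tested and the first above their 25.1%. HLF (chr17:55265012-55325065) measured 16.8, 14.7 and 12.9 CPM in the baseline libraries and 1.23, 1.28 and 1.21 CPM with forskolin and fell 11.9-fold (log2 fold change -3.57 ± 0.13, adjusted p = 1.06e-14). DBP measured 99.4, 104 and 108 CPM in the baseline libraries and 19.3, 22.8 and 21.2 CPM with forskolin and fell 4.91-fold (log2 fold change -2.30 ± 0.10, adjusted p = 1.68e-11). TEF, the third member of that family, measured 27.3, 27.6 and 24.6 CPM in the baseline libraries and 8.79, 7.99 and 8.02 CPM with forskolin and fell 3.21-fold (log2 fold change -1.68 ± 0.08, adjusted p = 2.38e-13). The 3 genes had separate groups, with all forskolin libraries low. PER3 fell from 15.3 ± 2.04 to 4.41 ± 0.66 CPM and CIART, a clock repressor, from 13.1 ± 1.1 to 4.18 ± 0.12 CPM. CRY1, CRY2, PER2 and NR1D2 fell from 42.5 CPM to 30.7 CPM, from 22.1 CPM to 12.4 CPM, from 8.28 CPM to 5.56 CPM and from 196 CPM to 119 CPM. BHLHE41, a clock repressor, fell from 53.1 CPM to 35.1 CPM. NFIL3, which binds the same DNA sites as the PAR-bZIP factors and represses them, rose from 21.7 ± 0.66 to 27.3 ± 2.3 CPM, and BHLHE40, a clock repressor and cyclic AMP target, from 23.4 ± 0.54 to 55.5 ± 1.4 CPM (2.38-fold). NPAS2, a partner of BMAL1, rose from 12 CPM to 16.7 CPM. All libraries were taken at 1 time, so phase and level of the clock cannot be told apart.

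Mitosis genes were lower together but by small amounts. Of 37 tested 36 fell (97.3%), against 25.1% of all genes tested. Their median log2 fold change was -0.52, and 8 passed the test against 1.5-fold. KIF20A, a kinesin of the central spindle, measured 105, 110.0 and 108 CPM in the baseline libraries and 48.5, 47.6 and 49.6 CPM with forskolin and fell 2.22-fold (log2 fold change -1.15 ± 0.04, adjusted p = 1.63e-14). CCNA2, the S and G2 cyclin, measured 176, 171 and 171 CPM in the baseline libraries and 95.2, 85.5 and 99.1 CPM with forskolin and fell 1.85-fold (log2 fold change -0.89 ± 0.05, adjusted p = 5.20e-12). TOP2A, the topoisomerase of mitotic chromosomes, measured 572, 550.3 and 564 CPM in the baseline libraries and 362, 357 and 371 CPM with forskolin (log2 fold change -0.63 ± 0.04, adjusted p = 6.51e-11). Each forskolin library was below each baseline library in the 3 genes. CDK1, CCNB1, PLK1 and AURKB fell from 187 CPM to 131 CPM, from 330.2 CPM to 246 CPM, from 159.9 CPM to 117 CPM and from 65.2 CPM to 43.8 CPM. NUSAP1, KIF11, SPC25, PRC1, NUF2 and KIF23 fell as well, and MKI67, the proliferation antigen, fell from 561 ± 74 to 434 ± 32 CPM (1.29-fold). KIF2C, a kinesin that takes microtubules apart, did not pass (log2 fold change 0.06 ± 0.04). FOXM1, a factor that drives many of these genes, fell from 356 ± 11 to 255 ± 10.2 CPM.

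DNA replication genes were less uniform, with 17 of 40 lower (42.5%) and 5 higher (12.5%), against 25.1% and 25.5% of all genes tested. Scaling by library size alone put 26 lower, and 3 were higher without baseline replicate 2. TYMS, thymidylate synthase, fell from 209 ± 4.4 to 137 ± 5.6 CPM, and PCNA, the sliding clamp, from 287 ± 8.9 to 192 ± 8.1 CPM. The licensing factors CDC6 and CDT1 rose from 119 CPM to 147 CPM and from 112 CPM to 144 CPM. Of the 14 MCM and origin genes 7 did not pass.

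Among G1 regulators, CCND2, a D-type cyclin, measured 47.5, 44.3 and 44.3 CPM in the baseline libraries and 7.64, 8.53 and 8.7 CPM with forskolin and fell 5.47-fold (log2 fold change -2.45 ± 0.06, adjusted p = 4.47e-17). CDKN2C, which encodes the CDK4 and CDK6 inhibitor p18, measured 313, 309.6 and 324 CPM in the baseline libraries and 135, 134 and 136 CPM with forskolin and fell 2.33-fold (log2 fold change -1.22 ± 0.05, adjusted p = 9.36e-14). So a cyclin and an inhibitor of its kinases were both low in every forskolin library. CDKN1B (p27) fell from 112 CPM to 85.7 CPM, and CDKN1A (p21) and CDK6 rose from 175 CPM to 223 CPM and from 134 CPM to 164 CPM. MXD3 and MXD4, antagonists of MYC, fell from 71 CPM to 38 CPM and from 65.9 CPM to 31.4 CPM. CCND3 and CDK4 fell from 109.9 CPM to 95 CPM and from 369.8 CPM to 312 CPM.

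Of 19 apoptosis genes tested 9 rose (47.4%) and 7 fell (36.8%), against 25.5% and 25.1% of all genes tested. BMF, a BH3-only protein that opposes BCL2 proteins, measured 29.9, 29.8 and 30.5 CPM in the baseline libraries and 2.83, 3.27 and 2.91 CPM with forskolin and fell 9.98-fold (log2 fold change -3.32 ± 0.08, adjusted p = 6.65e-18). BCL2L11 (BIM), another BH3-only protein, measured 20.4, 21.2 and 21 CPM in the baseline libraries and 9.98, 9.11 and 11.4 CPM with forskolin and fell 2.06-fold (log2 fold change -1.04 ± 0.08, adjusted p = 6.16e-10). MCL1, a guardian that binds both, measured 263, 258 and 255 CPM in the baseline libraries and 647, 642 and 662 CPM with forskolin and rose 2.52-fold (log2 fold change 1.33 ± 0.04, adjusted p = 8.34e-17). The groups were separate in all 3. BCL2 fell from 7.59 ± 1.04 to 2.81 ± 0.23 CPM (2.7-fold), and PMAIP1 (NOXA), which targets MCL1, rose from 7 ± 0.53 to 15.1 ± 0.63 CPM. BOK and HRK rose from 8.22 CPM to 14.6 CPM and from 3.08 CPM to 4.81 CPM, BAK1 rose from 64.2 CPM to 84.3 CPM, and BAX and BAD fell from 111 CPM to 84.8 CPM and from 73.1 CPM to 55.5 CPM.

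Of 14 tested genes of the insulin-like growth factor axis 7 rose (50%) and 4 fell (28.6%), against 25.5% and 25.1% of all genes tested. The share that fell was thus near that of all genes. The receptors and adaptors named here rose and the tested binding proteins fell. IRS1 measured 45, 42.7 and 40.5 CPM in the baseline libraries and 92.4, 103 and 104 CPM with forskolin and rose 2.34-fold (log2 fold change 1.22 ± 0.08, adjusted p = 1.65e-09), INSR rose from 77.4 ± 4.9 to 126 ± 9.96 CPM, and IGF1R and IGF2R from 179.9 CPM to 216 CPM and from 249 CPM to 343 CPM. IGF2, the growth factor overexpressed in adrenocortical carcinoma, measured 3944, 3839 and 3530 CPM in the baseline libraries and 3110, 3496 and 3730 CPM with forskolin, with a log2 fold change of -0.13 ± 0.10 that did not pass (adjusted p = 0.333). IGFBP5 measured 17.9, 17.7 and 18.1 CPM in the baseline libraries and 3.21, 3.56 and 3.9 CPM with forskolin and fell 5.04-fold (log2 fold change -2.33 ± 0.10, adjusted p = 7.09e-14). IGFBP2 fell from 112 ± 4.6 to 54.7 ± 0.67 CPM, IGFBP6 from 2.38 ± 0.33 to 0.767 ± 0.16 CPM and IGFBP3 from 21.3 ± 1.7 to 14.9 ± 0.32 CPM, so all 4 tested binding-protein genes were lower.

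The integrated stress response, the ATF4 programme that also answers to amino acid shortage, was mostly higher. Of 30 genes tested 25 rose (83.3%) and 3 fell (10%), against 25.5% and 25.1% of all genes tested. The median log2 fold change of the list was 0.96. TRIB3 (chr20:362835-397559), a pseudokinase that ATF4 and CHOP induce, measured 69.6, 71.1 and 72.7 CPM in the baseline libraries and 477, 494 and 508 CPM with forskolin and rose 6.93-fold (log2 fold change 2.79 ± 0.06, adjusted p = 6.15e-19). ASNS, asparagine synthetase, measured 21, 20.9 and 22.2 CPM in the baseline libraries and 74.1, 72.7 and 68.5 CPM with forskolin and rose 3.36-fold (log2 fold change 1.75 ± 0.06, adjusted p = 1.71e-15). DDIT3 (CHOP) measured 16.6, 15.8 and 15.7 CPM in the baseline libraries and 48.9, 45.7 and 41.5 CPM with forskolin and rose 2.83-fold (adjusted p = 7.76e-13). In each of the 3 the forskolin libraries were the high ones and none overlapped the baseline. ATF4 itself rose from 196 ± 5.6 to 291 ± 11 CPM (1.48-fold), CHAC1 from 7.82 ± 0.47 to 33.3 ± 1.7 CPM and SESN2 from 31.8 ± 0.99 to 71.2 ± 3.04 CPM. The secreted members ADM2, STC2 and FGF21 rose from 1.04 CPM to 10.6 CPM, from 0.597 CPM to 4.79 CPM and from 0.121 CPM to 0.604 CPM. The serine and folate enzymes PSAT1, SHMT2 and MTHFD2 rose from 156 CPM to 376 CPM, from 304 CPM to 586 CPM and from 81.9 CPM to 138 CPM. The tRNA synthetase genes WARS1, GARS1, SARS1, AARS1 and NARS1 all rose, WARS1 the most (from 88.5 CPM to 201 CPM). The 3 that fell were VLDLR, PSPH and NUPR1, and VLDLR, a lipoprotein receptor that ATF4 induces elsewhere, measured 32.3, 33.2 and 31.1 CPM in the baseline libraries and 4.36, 5.38 and 3.68 CPM with forskolin and fell 7.18-fold (log2 fold change -2.84 ± 0.09, adjusted p = 8.86e-16). NUPR1 lost its call without forskolin replicate 2, baseline replicate 2 or baseline replicate 3. For many of these genes forskolin did not stand apart from the inhibitors: TRIB3 was at 168 ± 1.05 CPM in EZH2i and 422 ± 38 CPM in CBPi, ASNS at 60.4 ± 0.6 and 97.8 ± 6.8 CPM, and forskolin was above all 3 other groups in 2 of the 30 genes, against 12% of all genes tested.

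Chaperones, sensors and degradation genes of the endoplasmic reticulum rose in most cases. Of 22 tested 19 were higher (86.4%), against 25.5% of all genes tested, and the other 3 did not pass. These were 13 of 14 chaperones and 6 of 8 sensors and degradation genes. Of the 22, 3 were higher in the test against 1.5-fold. HSPA5 (BiP) measured 839.8, 854 and 886 CPM in the baseline libraries and 1653, 1648 and 1689 CPM with forskolin (log2 fold change 0.95 ± 0.04, adjusted p = 2.10e-14). XBP1, the factor that the sensor IRE1 splices, measured 58.1, 56.8 and 59.1 CPM in the baseline libraries and 167, 151 and 162 CPM with forskolin and rose 2.75-fold (log2 fold change 1.46 ± 0.05, adjusted p = 6.18e-16), and ERN1, which encodes IRE1, rose from 152 ± 8.7 to 259 ± 9.8 CPM. For HSPA5 and XBP1 the groups did not overlap. Chaperones of other compartments differed. The mitochondrial chaperones HSPD1, HSPE1, HSPA9 and TRAP1 all rose, HSPD1 from 1160 ± 15 to 2243 ± 64 CPM (1.93-fold). The cytosolic small heat shock protein HSPB1 measured 213, 225 and 236 CPM in the baseline libraries and 84.6, 82.4 and 92.6 CPM with forskolin and fell 2.6-fold (log2 fold change -1.38 ± 0.11, adjusted p = 6.42e-07). HSPA1A, HSPA1B, DNAJA1 and BAG3 fell, and HSP90AB1 rose from 1034 CPM to 1374 CPM. HSPA1A and HSPA1B are near-identical copies, so their separate counts are uncertain.

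Ribosomal protein genes shifted by small amounts, with 18 of 35 higher (51.4%), against 25.5% of all genes tested. The median log2 fold change of the list was 0.15. That count was 7 under scaling by library size alone, 10 without forskolin replicate 1 and 9 without baseline replicate 1, and composition factors differ between the groups. RPLP0 (from 848 CPM to 1046 CPM) and RPS27A (from 258 CPM to 324 CPM) rose by the largest fitted amounts among those that passed.

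VGF belongs with the granins, the cargo proteins of dense-core secretory granules, and these did not move together. SCG2 measured 1.55, 0.81 and 1.27 CPM in the baseline libraries and 4.64, 4.92 and 4.62 CPM with forskolin and rose 3.98-fold (log2 fold change 1.99 ± 0.21, adjusted p = 1.19e-07), and SCG3 rose from 2.03 ± 0.17 to 5.39 ± 0.36 CPM. CHGB measured 47.8, 49.1 and 46.9 CPM in the baseline libraries and 19.7, 18 and 19.4 CPM with forskolin and fell 2.52-fold (log2 fold change -1.33 ± 0.06, adjusted p = 1.04e-13). PCSK1N, the precursor of an inhibitor of the convertase PCSK1, measured 88.7, 88.5 and 98.5 CPM in the baseline libraries and 38.5, 42 and 41.9 CPM with forskolin and fell 2.25-fold (log2 fold change -1.17 ± 0.22, adjusted p = 0.00187), opposite to PCSK1. CHGA rose from 3.98 ± 0.4 to 5.26 ± 0.32 CPM, a call lost without baseline replicate 3, and FURIN rose from 104 CPM to 127 CPM. CPE, the carboxypeptidase of these granules, did not pass (log2 fold change 0.17 ± 0.11, adjusted p = 0.195). Beside these, the summed level of the chromaffin and neuroendocrine markers, which include CHGA and CHGB, was 81.6 to 84.5 CPM at baseline and 62.9 to 66.5 CPM with forskolin, and its defining genes were at or near 0, as given above.

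Besides KCNC2, potassium channel genes changed in both directions. Of 25 tested 7 rose (28%) and 9 fell (36%), against 25.5% and 25.1% of all genes tested, so the share that rose was near that of all genes. KCNA4, a voltage-gated channel, fell from 13.7 ± 1.1 to 5.16 ± 0.11 CPM, and KCND3 and KCNH2 from 22.7 CPM to 10.3 CPM and from 8.66 CPM to 3.68 CPM. The calcium-activated channels KCNMA1 and KCNN3 fell from 34.1 ± 1.5 CPM to 12.1 ± 0.73 CPM and from 10.01 ± 0.77 CPM to 4.23 ± 0.92 CPM, and KCNJ8 fell from 61.3 ± 5.4 to 31.1 ± 3.5 CPM. KCNQ1, a slow voltage-gated channel, measured 0.638, 0.626 and 0.517 CPM in the baseline libraries and 4.48, 5.26 and 5.02 CPM with forskolin and rose 8.18-fold (log2 fold change 3.03 ± 0.18, adjusted p = 1.84e-11). KCNG1 rose from 4.61 ± 0.13 to 8.83 ± 0.52 CPM, and KCNN2 from 5.9 CPM to 9.25 CPM. Of 12 RGS genes tested 3 rose (25%) and 4 fell (33.3%), the first share near that of all genes and the second a little above it. RGS5 (above) and RGS9 fell most, and RGS20, at a low level, rose most, from 0.369 CPM to 1.03 CPM.

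Of 42 matrix and adhesion genes tested 18 rose (42.9%) and 21 fell (50%), against 25.5% and 25.1% of all genes tested. Collagens went both ways, with 5 of 11 higher and 5 lower, as did glycoproteins and laminins, with 4 of 10 higher and 6 lower. The fibrillar collagens COL1A1, COL1A2, COL3A1, COL5A1 and COL11A1 fell, COL3A1 from 15.7 ± 1.3 to 3.48 ± 0.45 CPM and COL11A1 from 123 ± 7.1 to 55.3 ± 2.7 CPM. The basement membrane collagens COL4A1, COL4A2 and COL18A1 rose, as did COL6A1 and COL6A2. COL4A1 measured 333, 323 and 301 CPM in the baseline libraries and 618, 620.3 and 682 CPM with forskolin and rose 2.01-fold (log2 fold change 1.00 ± 0.05, adjusted p = 1.32e-12), and COL6A1 rose from 26.8 ± 1.2 to 66.8 ± 3.3 CPM. The summed level of the fibroblast markers, which include COL1A1, COL1A2 and COL3A1, was 39.2 to 41.5 CPM at baseline and 17.5 to 19.1 CPM with forskolin, with 4 of 6 tested markers lower and LUM and DCN higher, and their part in this result was not tested. LAMA1 rose from 0.263 ± 0.1 to 1.75 ± 0.23 CPM, NID1 from 107 ± 2.9 to 222 ± 5.2 CPM and TNC from 78.4 ± 3.1 to 165 ± 5.8 CPM, and LAMB1, THBS1 and LAMA4 fell from 554 CPM to 406 CPM, from 9.52 CPM to 3.73 CPM and from 0.815 CPM to 0.14 CPM. Of 9 integrin genes 7 rose. ITGA1, a collagen-binding subunit, measured 1059, 1043 and 999 CPM in the baseline libraries and 2143, 2161 and 2228 CPM with forskolin and rose 2.11-fold (log2 fold change 1.07 ± 0.04, adjusted p = 6.59e-15). ITGA2 and ITGA5 rose from 13.2 CPM to 34.2 CPM and from 71.7 CPM to 139 CPM, and ITGAV fell from 96.5 ± 2.4 to 50.4 ± 0.39 CPM. TIMP1, a metalloprotease inhibitor, rose from 89 ± 1.3 to 197 ± 4.8 CPM while TIMP2 fell from 106 ± 1.4 to 46.5 ± 2.4 CPM. MMP2, MMP11 and MMP14 fell from 20.04 CPM to 11.6 CPM, from 7.43 CPM to 2.39 CPM and from 45.5 CPM to 26.9 CPM, in contrast to MMP10. ADAMTS9 fell from 71.4 ± 1.5 to 20.5 ± 0.83 CPM (3.48-fold).

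Most antigen presentation and interferon genes that passed were lower. PSMB9, an immunoproteasome subunit, measured 10.9, 9.24 and 10.6 CPM in the baseline libraries and 2.22, 2.07 and 2.96 CPM with forskolin and fell 4.24-fold (log2 fold change -2.09 ± 0.14, adjusted p = 1.02e-10). BST2 (tetherin), an interferon-induced membrane protein, measured 186, 201 and 211 CPM in the baseline libraries and 80.1, 77.6 and 82.3 CPM with forskolin and fell 2.49-fold (log2 fold change -1.32 ± 0.05, adjusted p = 1.48e-14). Their groups did not overlap. PSMB8 and the peptide transporter gene TAP1 fell from 43.1 CPM to 23.9 CPM and from 28.7 CPM to 16.9 CPM, and B2M, the shared light chain, from 629 ± 22 to 519 ± 23 CPM (1.21-fold). Of 11 MHC class I genes 7 fell (63.6%), against 25.1% of all genes tested, and the other 4 did not pass. IFI6, IFI27, IFIT1, ISG15 and IRF9 fell, and 5 of the 12 interferon-stimulated genes did not pass.

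Among NRF2 target genes 5 of 23 rose (21.7%) and 12 fell (52.2%), the first share near the 25.5% of all genes tested. SLC7A11, the cystine importer and also an ATF4 target, rose from 44.4 ± 4.1 to 95.4 ± 4.9 CPM. HMOX1, heme oxygenase 1, fell from 30.9 ± 0.65 to 20.6 ± 1.5 CPM, AKR1C1 from 4.28 ± 0.34 to 1.78 ± 0.26 CPM and FTL, the ferritin light chain, from 507 ± 34 to 371 ± 15 CPM. Of the glycolysis genes, PFKP (from 78.2 CPM to 203 CPM), ENO2 (from 11.5 CPM to 37.1 CPM), HK2 (from 16.7 CPM to 30.2 CPM), ENO1 (from 399 CPM to 643 CPM) and ALDOA (from 408 CPM to 562 CPM) were higher. ALDOC (from 40.1 CPM to 18.1 CPM) and TPI1 (from 1227 CPM to 906 CPM) were lower. Over the 27 glycolysis and hypoxia genes 11 rose (40.7%) and 7 fell (25.9%, near the share of all genes tested), and scaling by library size alone put 13 lower. VEGFA, the angiogenic growth factor, rose from 179.9 ± 6.9 to 314 ± 2.6 CPM and SLC2A1, the glucose transporter, from 116 ± 2.5 to 184 ± 3.7 CPM. Of the ABC drug transporters, ABCB1, the multidrug exporter P-glycoprotein, rose from 308 ± 6.7 to 399.6 ± 11 CPM (log2 fold change 0.38 ± 0.04, adjusted p = 2.84e-07), ABCG2 from 13.4 ± 1.2 to 32.2 ± 1.97 CPM and ABCC1 from 83 ± 3.6 to 137 ± 9.6 CPM, and ABCC4 and ABCC5 fell.

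Forskolin was then set beside the other agents of the series, which were given for 96 h and not 48 h, and at doses of another kind. In 2450 genes (12%) forskolin was above baseline, EZH2i and CBPi alike, each at an adjusted p below 0.05 by edgeR, and in 2549 (12.5%) it was below all 3. These 3 comparisons share the forskolin libraries. Among genes whose mean log2 CPM over forskolin and baseline was 1 or more and whose libraries did not overlap, ADGRD1 had the widest margin to its nearest other group. It was at 0.816 ± 0.096 CPM in baseline, 0.482 ± 0.12 CPM in EZH2i, 0.235 ± 0.17 CPM in CBPi and 25.5 ± 0.74 CPM in FSK. GCNA was at 4.75 ± 0.46 CPM in EZH2i and 3.18 ± 0.15 CPM in CBPi, against 214 ± 13 CPM in FSK. TENT5A, a poly(A) polymerase, was at 4.91 ± 0.92 CPM in baseline, 4.53 ± 0.56 CPM in EZH2i, 4.88 ± 0.22 CPM in CBPi and 45.8 ± 1.6 CPM in FSK. LYVE1, a hyaluronan receptor, was at 3.05 ± 0.38, 3.42 ± 0.34, 3.3 ± 0.67 and 30.1 ± 0.5 CPM in the same order. CAPN8, a calpain protease, was at 0.889 ± 0.4, 0.161 ± 0.027, 0.125 ± 0.073 and 8.4 ± 1.1 CPM. The others of the 10 with the largest margin were SPRR1B, SLC51A, UTS2, TFPI2 and MMP10.

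Below all 3 other groups, KCNC2 had the widest margin within the same limits, at 14.9 ± 0.17 CPM in EZH2i and 8.9 ± 0.52 CPM in CBPi against 0.368 ± 0.11 CPM in FSK. BMF was at 161 ± 8.3 CPM in EZH2i and 78.7 ± 1.2 CPM in CBPi against 3.01 ± 0.23 CPM in FSK. CXCL14, a chemokine, was at 15 ± 1.05, 114 ± 4.6, 21.1 ± 2.2 and 2 ± 0.27 CPM in baseline, EZH2i, CBPi and FSK. HLF was at 16.3 ± 0.82 CPM in EZH2i and 11.7 ± 0.74 CPM in CBPi, ABCG1 at 6.48 ± 0.73 and 21.9 ± 0.44 CPM, and SFRP4 at 10.7 ± 1.2 and 3.38 ± 0.65 CPM. WSCD2, ADRA2A, CDK15 and ANKFN1 complete the 10. VGF, with its promoter shown above, was at 1036 ± 33 CPM in EZH2i and 515 ± 113 CPM in CBPi, both below FSK.

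**Figure D5:**
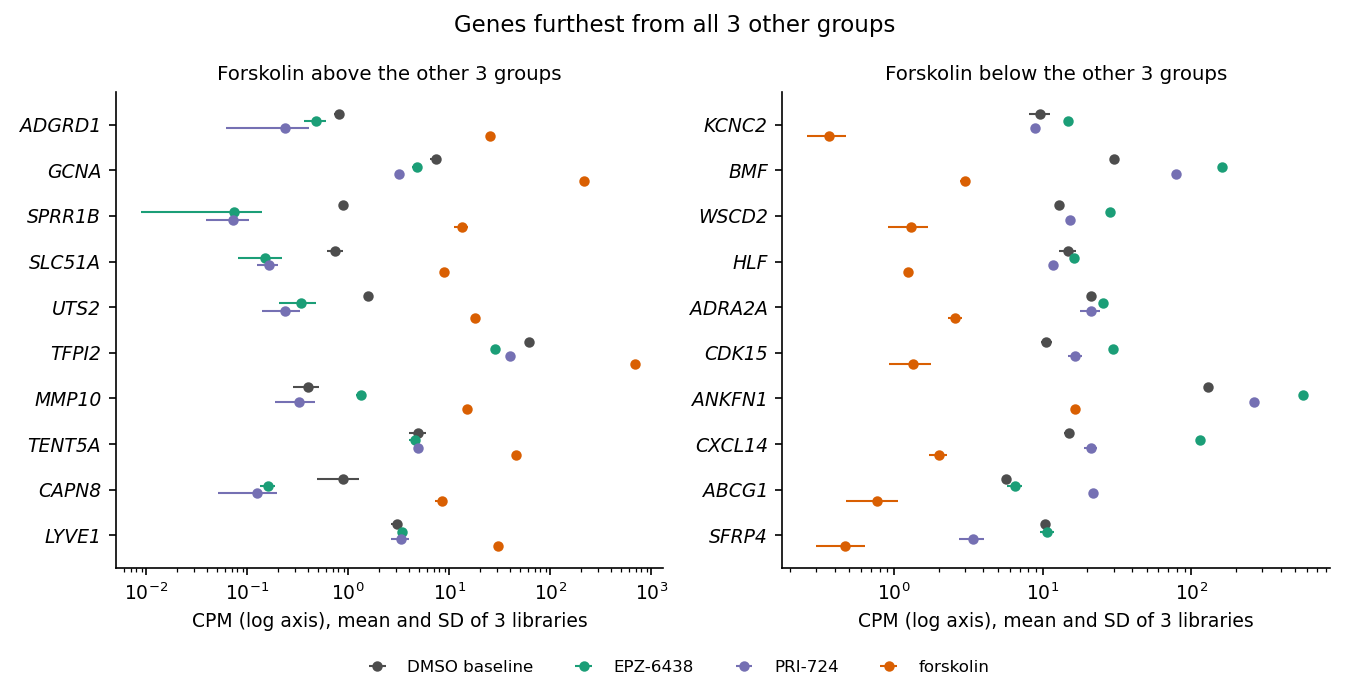
Mean CPM ± SD of 3 libraries on a log axis in baseline, EZH2i, CBPi and FSK for the 10 genes furthest above (left) and the 10 furthest below (right) all 3 other groups. CPM is on the horizontal axis. The FSK points lie to the right of the other 3 groups in the left panel and to the left of them in the right panel. The other groups differ among themselves in several genes.

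Promoter letters were compared between genes that moved and genes that did not. Of the 20360 genes tested, 12652 matched RefSeq windows by symbol, with 18221 windows of 250 bases before to 50 after a start. The full CRE (TGACGTCA, which reads the same on both strands) was in 2.91% of the windows of genes more than 1.5-fold higher (30 of 1030) and in 1.64% of those more than 1.5-fold lower (24 of 1464). It was in 2.73% of the windows of genes that did not pass, 2.73% of all tested and 1.85% of all windows of genes in the table. It was in 2.9% of the windows of genes that passed but not above 1.5-fold, which is the share seen in the higher genes. Among genes more than 4-fold higher the share was 4.55% (10 of 220 windows), and among those more than 4-fold lower 2.22% (6 of 270). Among the listed CREB targets it was 10.2% (5 of 49 windows, from 22 genes). A gene can be known as a CREB target because of its CRE, so that share is no independent comparison. The shorter core TGACG, on either strand and including the full CRE, was in 27.5% of windows of genes more than 1.5-fold higher, 21.1% of those lower and 31.9% of those that did not pass. The SF-1 motif CAAGGTCA, on either strand, was in 1.26% of higher, 1.3% of lower and 0.931% of not passed. The AP-1 site TGACTCA, on either strand and searched after the other shares had been seen, was in 6.7% of higher, 4.03% of lower and 3.5% of not passed, and in 11.4% of the windows of genes more than 4-fold higher and 4.81% of those more than 4-fold lower. Windows of 1 gene overlap where starts lie close, and PMEPA1 and its divergent antisense neighbour NKILA share 1 CRE, so windows are not independent and no test was made.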

How the data were processed

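RNA was measured in 12 polyA-selected libraries, 3 per group, with groups taken from the sample labels. Per the submitters' processing notes, the authors used STAR for alignment, featureCounts for counting per gene and the build hg38. Not given in the sources used here were tool versions, annotation release, strand setting and the handling of reads that map to several places. The deposited values are estimated counts, of which 65.6% of those above 0 are whole (within 1e-06), with the gene length in another column of the authors' table.

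Counts of the 60617 genes were rounded and fitted over all 12 libraries with edgeR 4.0.16 in R 4.3.3 (TMM scaling, filterByExpr, robust quasi-likelihood test, Benjamini-Hochberg threshold 0.05), which left 20360 genes. The 6 other libraries share the estimate of the spread. A test against 1.5-fold used glmTreat. No strand setting was found, so reads of overlapping and antisense genes cannot be told apart. Identifiers were matched to 60261 symbols, and positions come from GENCODE v29 for 58542 genes. Promoter windows are RefSeq, GRCh38.p14, matched by symbol. The code was tested on simulated data.

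The comparison and the 42 gene lists were chosen with earlier results of these data known. Genes are named by a rule: the 15 largest rises and falls among genes whose mean log2 CPM was 1 or more and whose groups did not overlap, members of the listed roles (in long roles up to 6 each way), and, with the same level and overlap limits, the 10 furthest above and below all other groups. Alternatives were DESeq2 1.42.0, limma 3.58.1 (voom), 3 other scalings, 2 other filters, a fold of 2, only the 6 libraries compared, leaving out each replicate, and a shorter promoter window. Some members of the lists are counted but not reported here by name.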

Additional observations from a re-analysis of the deposited data

How the results depend on the processing

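Across the alternatives that keep the 1.5-fold threshold, the number of genes that differed between forskolin and baseline stayed between 9186 and 10557 (10299 as reported) and the number past 1.5-fold between 1692 (DESeq2) and 2622 (no filter), against 2401 as reported. Testing against a fold of 2 left 1072 genes, 502 higher and 570 lower. Leaving out 1 replicate at a time gave 9186 to 9694 genes changed, 2179 to 2312 past 1.5-fold and 4458 to 4854 in which forskolin stood apart from all 3 other groups (4999 as reported). Between 8931 and 10200 of the 10299 genes were called again under each alternative. Of 1176 list counts recomputed, 1138 stayed within 1.5 times the reported count. Among the genes named, 2 that had not passed changed sign: KIF2C was at −0.0088 on the log2 scale under scaling by library size alone and GNAS between −0.0291 and 0.0114 when 1 replicate was left out. In the 200 bases before the start alone, the share of windows of genes above 1.5-fold higher with TGACG was 20.5% in place of 27.5%; fewer bases were searched. No paired analysis was possible because the labels give no replicate numbers, so the numbers used here only name libraries. Depth limits genes below about 1 CPM, where a library holds few counts, and their folds are imprecise.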
